A study of Homo sapiens with 43 samples.

Results

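The integrated stress response and the transcription factor ATF4 were followed through 37 listed genes: ATF4, its partner and feedback factors, and genes that ATF4 is known to switch on. All 37 were found by symbol among the 58347 annotated entries of the RNA-seq count table, and 36 of them passed the filter on low counts. The series studied U2AF1, the small U2AF subunit, which contacts the end of introns in splicing, and 2 of its leukaemia-associated mutations, S34F and Q157R. The cells were HEL, a human erythroleukaemia line, carrying by stable transduction a doxycycline-inducible U2AF1 that was S34F, Q157R or wild type (WT). Whether each line was a single clone is not given in the sources used here.

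The 10 RNA-seq libraries formed 6 groups: S34F induced, Q157R induced and WT induced, with 2 libraries each, S34F uninduced and Q157R uninduced, with 1 library each, and WT uninduced, with 2 libraries. Induced cells had received 1 µg/ml doxycycline for 48 hours. Libraries within a group carried the number 1 or 2, and both single uninduced libraries carried the number 1. The labels call these libraries biological replicates but do not say whether they came from separate cultures or what a shared number stands for, so p-values measure only the spread between these samples. Wherever 2 values follow a group, the first is replicate 2 and the second is replicate 1.

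In the integrated stress response, kinases that sense heme shortage, unfolded protein, viral RNA or amino acid shortage phosphorylate the translation initiation factor eIF2. Bulk protein synthesis slows while ATF4 mRNA is translated more, and ATF4, usually paired with a C/EBP protein, switches on genes for amino acid uptake, amino acid synthesis, one-carbon metabolism and redox defence. The heme-regulated kinase HRI (EIF2AK1) is the eIF2 kinase best known in erythroid cells. Because ATF4 is controlled largely at translation, its mRNA and the mRNA of its targets need not move together.

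Gene counts per RNA-seq library were 22392303 to 40370092. The share of all reads that fell outside annotated features was 33.5 and 33.7% in S34F induced cells, against 22.7 and 22.7% in WT induced cells, and lay between 19.0 and 27.0% in the other 6 libraries. U2AF1 itself had 19.4 and 18 CPM (gene counts scaled to the size of the library) in S34F induced, 15.2 and 21.5 in Q157R induced and 11 and 19.1 in WT induced cells, against 21.2 in S34F uninduced, 22.1 in Q157R uninduced, and 12.6 and 13.4 in WT uninduced cells. Induced and uninduced WT cells overlapped, and both induced values lay below the single uninduced value in S34F and in Q157R cells. U2AF1L5, a near-identical copy of U2AF1, held 0.355 to 1.09 CPM. Reads that map to several places were kept apart from the gene counts, so reads shared by U2AF1 and U2AF1L5 may be missing. These counts therefore cannot show whether induction raised U2AF1 mRNA. The 10 erythroid and megakaryocytic markers checked for HEL were all present, with summed levels of 2202 to 3804 CPM, against at most 2.32 CPM for 5 lymphoid markers, of which MS4A1 was at 0 counts. In bulk RNA, fewer cells of a type and less RNA per cell cannot be told apart.

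Per kilobase of exon, the members averaged over the 10 libraries from 233 CPM for SLC1A5, the glutamine transporter, 164 CPM for ATF4, 151 CPM for SLC7A5, the large neutral amino acid carrier, and 130 CPM for EIF4EBP1, a repressor of cap-dependent translation, down to 2.18 CPM for ASNS, asparagine synthetase. The 5 members below ASNS had the lowest counted levels: NUPR1 had 1 to 75 counts per library, STC2 1 to 25, CBS 5 to 162, ALDH1L2 0 to 12, and VLDLR, which failed the filter, 0 to 3. The other 32 members had at least 10 counts in every library. CBS has a near-identical copy, CBSL, that held 0 to 7 counts per library. Its reads may be split or, where they map to both copies, missing from the gene counts, so its low counts need not mean low expression.

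Together the 37 members took 0.520 and 0.382% of gene counts in S34F induced cells, 0.884 and 0.529% in Q157R induced cells, 0.981 and 0.505% in WT induced cells, 0.463% in S34F uninduced cells, 0.419% in Q157R uninduced cells, and 1.06 and 0.431% in WT uninduced cells. Replicate 2 was the higher library in all 4 groups that held both numbers, and within each number the S34F induced library was below the WT induced library.

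**Figure D1:**
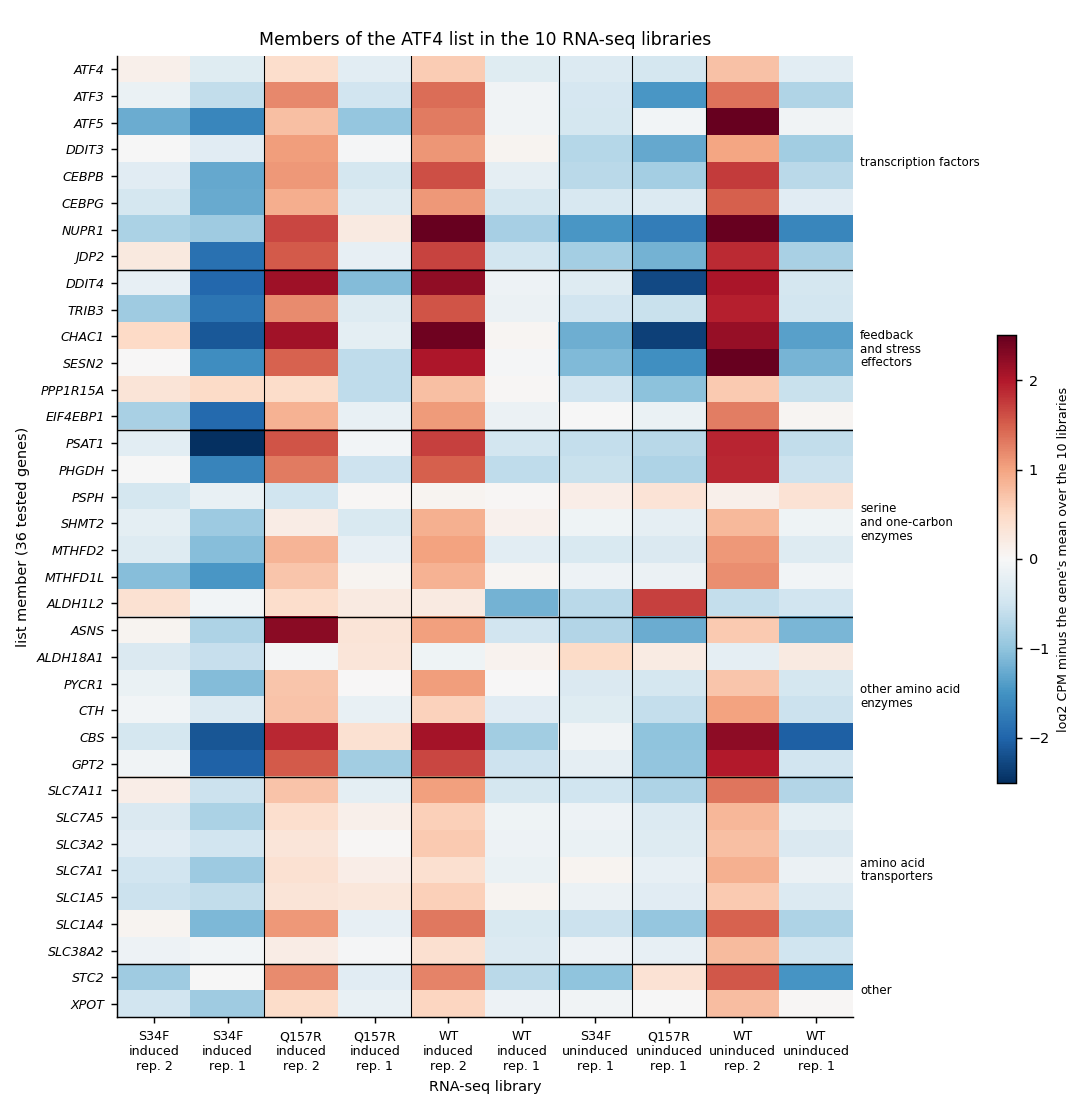
Rows are the 36 tested members in 6 functional groups, columns the 10 RNA-seq libraries, and colour the log2 CPM minus the mean of that gene over the 10 libraries, with the colour scale ending at 2.5 in either direction. The replicate 2 columns of Q157R induced, WT induced and WT uninduced cells are red for most members, while the S34F induced replicate 1 column is the bluest of the induced libraries.

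ATF4 dimers recognise a composite element of a C/EBP and an ATF half-site, TGATGNAA, which lies in the promoters of several known targets. RefSeq promoter windows (GRCh38.p14, 250 bases before to 50 after a start site) were found for 29 of the 37 members. Of these 29, 10 (34.5%) held TGATGNAA on either strand, against 1217 of 27305 genes, or 4.46%, among all genes with a window. A gene can have several windows. By window, the match was in 12 of 51 (23.5%) of the members, against 3.62% of all 35116 windows. The list was made of known ATF4 targets, so these shares are no independent test. The following 30-base stretches are shown because these members were called in 2 comparisons described below. These were the comparison of replicates and, with the replicate number in the model, that of S34F with WT. In addition, their match begins before the start site of its RefSeq window. The SLC1A4 match begins 7 bases before that site and runs across it. In the annotation used for the counts, every stretch lies inside its gene, downstream of the first base of the gene. They are read along the gene's own strand, and capitals mark the match.
CEBPG, chr19:33374060-33374089, plus strand: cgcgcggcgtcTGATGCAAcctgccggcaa
CHAC1, chr15:40953251-40953280, plus strand: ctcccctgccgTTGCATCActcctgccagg
JDP2, chr14:75427995-75428024, plus strand: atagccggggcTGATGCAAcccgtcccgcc
MTHFD1L, chr6:150866346-150866375, plus strand: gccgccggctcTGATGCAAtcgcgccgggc
SLC1A4, chr2:64989381-64989410, plus strand: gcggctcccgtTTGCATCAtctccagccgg
CEBPG, JDP2 and MTHFD1L carry the spelling TGATGCAA, and CHAC1 and SLC1A4 carry its reverse complement TTGCATCA. ASNS, ATF3, SLC1A5, SLC3A2 and SLC7A1 also held a match, the last 2 of them after the start site of their window. A match is a description of the letters in the window and not of binding.

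The first comparison asked how far the members moved with the replicate number alone. That these genes shift with the number was already known from these data. The counts and p-values therefore describe the shift and are no independent test of it. Within groups, replicate 2 was higher than replicate 1 in 28 of the 36 tested members and lower in 0 (edgeR quasi-likelihood test with group and replicate number in the model, Benjamini-Hochberg adjusted p under 0.05 over 21300 genes). Among all genes tested, 9.1% were higher and 7.97% lower. The median difference was 1.23 on the log2 scale over the members and -0.00 over all genes. ATF4 rose by 0.77 ± 0.11 (SE, adjusted p = 0.00149), below that median. DESeq2 called 31 members higher and 0 lower, beside 1871 of 38670 genes higher and 1757 lower.

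ATF4 had 432 and 321 CPM in S34F induced cells, 532 and 328 in Q157R induced cells, 609 and 318 in WT induced cells, 311 in S34F uninduced cells, 290.5 in Q157R uninduced cells, and 656 and 327 in WT uninduced cells. All 4 replicate 2 libraries lay above all 6 replicate 1 libraries, which spanned only 290.5 to 328 CPM across the 3 lines and both treatments. The same separation was seen in CHAC1, PHGDH, SLC7A11, SLC1A4, SESN2, CTH, GPT2 and JDP2, making 9 members, against 4.14% of all genes. When the S34F induced replicate 2 library was set aside, the other 3 replicate 2 libraries lay above all replicate 1 libraries in 32 of 36 members, against 8.43% of all genes. The members outside those 32 were PSPH, ALDH1L2, ALDH18A1 and PPP1R15A.

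Of the 8 transcription factors tested, 7 were called higher in replicate 2. CEBPG, a dimer partner of ATF4, had 55.7 and 31.7 CPM in S34F induced cells, 143 and 60.3 in Q157R induced cells, 161 and 55.6 in WT induced cells, 57.6 in S34F uninduced cells, 60.0 in Q157R uninduced cells, and 213 and 62.0 in WT uninduced cells. CEBPB, a C/EBP factor induced in many stresses, had 19.98 and 9.97 CPM in S34F induced cells, 51.1 and 17.8 in Q157R induced cells, 73.8 and 20.6 in WT induced cells, 15.1 in S34F uninduced cells, 13.3 in Q157R uninduced cells, and 81.4 and 15.1 in WT uninduced cells. JDP2, a repressor of the AP-1 family, had 15.0 and 3.43 CPM in S34F induced cells, 36.8 and 11 in Q157R induced cells, 40.8 and 9.22 in WT induced cells, 6.98 in S34F uninduced cells, 5.5 in Q157R uninduced cells, and 46.4 and 7.21 in WT uninduced cells. In all 3 factors replicate 2 exceeded replicate 1 in every pair. JDP2 rose by 2.17 ± 0.16 on the log2 scale (adjusted p = 2.63e-05), CEBPB by 1.71 ± 0.20, ATF3, a stress-induced repressor, by 1.44 ± 0.25, CEBPG by 1.35 ± 0.14, and DDIT3 (CHOP), the pro-apoptotic C/EBP relative, by 1.06 ± 0.22. NUPR1, a stress-induced chromatin protein, was called at 3.00 from very low counts. ATF5, a relative of ATF4, was 1.53 and was not called.

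Of the 6 feedback and effector genes, 5 were called higher in replicate 2. DDIT4, an inhibitor of mTORC1, had 72.7 and 21.4 CPM in S34F induced cells, 362 and 39.4 in Q157R induced cells, 386 and 76.8 in WT induced cells, 67.1 in S34F uninduced cells, 17.3 in Q157R uninduced cells, and 344 and 61.6 in WT uninduced cells. TRIB3, a pseudokinase that restrains ATF4, had 35.6 and 18.7 CPM in S34F induced cells, 149.8 and 52.8 in Q157R induced cells, 198 and 59.5 in WT induced cells, 47.2 in S34F uninduced cells, 44.8 in Q157R uninduced cells, and 253 and 47.9 in WT uninduced cells. CHAC1, which degrades glutathione, had 30.6 and 4.97 CPM in S34F induced cells, 93.8 and 18.2 in Q157R induced cells, 118 and 22.6 in WT induced cells, 9.30 in S34F uninduced cells, 4.26 in Q157R uninduced cells, and 98.9 and 8.41 in WT uninduced cells. In these 3 genes every group with both numbers had its higher value in replicate 2, and S34F induced replicate 2 was the lowest of the replicate 2 libraries. SESN2, a leucine sensor that restrains mTORC1, had 47.2 and 15.9 CPM in S34F induced cells, 131 and 30.1 in Q157R induced cells, 190.4 and 45.9 in WT induced cells, 21.7 in S34F uninduced cells, 16.1 in Q157R uninduced cells, and 271 and 21 in WT uninduced cells. EIF4EBP1 had 66.6 and 30.5 CPM in S34F induced cells, 215 and 104 in Q157R induced cells, 245 and 106 in WT induced cells, 117 in S34F uninduced cells, 105 in Q157R uninduced cells, and 284 and 121 in WT uninduced cells. The log2 differences of replicate 2 from replicate 1 were 2.72 ± 0.20 for CHAC1 (adjusted p = 1.51e-04), 2.45 ± 0.22 for DDIT4, 2.34 ± 0.41 for SESN2, 1.65 ± 0.22 for TRIB3 and 1.16 ± 0.09 for EIF4EBP1. EIF4EBP1 was the most even of them, with differences of 1.13, 1.05, 1.21 and 1.23 in the S34F induced, Q157R induced, WT induced and WT uninduced pairs. PPP1R15A (GADD34), which returns eIF2 to its active state, was 0.72 and was not called. SESN2 lost its call when either Q157R induced or either WT induced library was left out, with no filter on low counts, and in WT libraries alone. Its edgeR or DESeq2 adjusted p was 2.27e-06 to 0.207 over 18 alternatives. TRIB3 lost it without WT induced replicate 1.

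**Figure D2:**
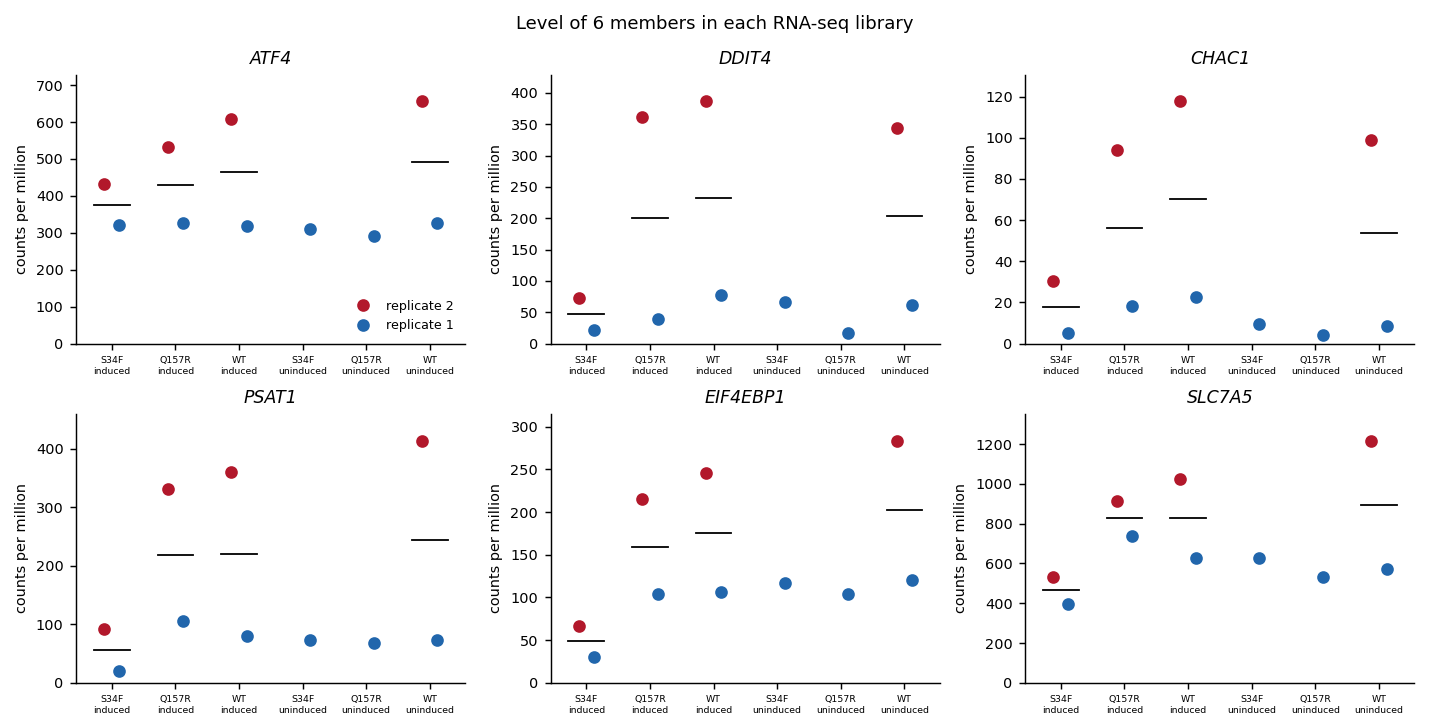
Each panel gives 1 member's CPM in the 10 RNA-seq libraries, with replicate 2 in red, replicate 1 in blue and a black line at the mean of groups with 2 libraries; axes start at 0. Replicate 2 lies above replicate 1 in each pair, and in DDIT4, PSAT1 and EIF4EBP1 the S34F induced replicate 2 library lies near or below the replicate 1 level of the other groups.

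Among enzymes of serine synthesis and one-carbon metabolism, 5 of 7 were called higher in replicate 2. PHGDH, the first enzyme of serine synthesis, had 183 and 58.5 CPM in S34F induced cells, 455 and 129 in Q157R induced cells, 516 and 118 in WT induced cells, 124 in S34F uninduced cells, 107 in Q157R uninduced cells, and 679.6 and 127 in WT uninduced cells. PSAT1, the second enzyme, had 92.7 and 19.8 CPM in S34F induced cells, 331 and 105 in Q157R induced cells, 361 and 80.7 in WT induced cells, 73.9 in S34F uninduced cells, 68.3 in Q157R uninduced cells, and 414 and 72.9 in WT uninduced cells. Both were several times higher in replicate 2 of every group. MTHFD2, a mitochondrial folate enzyme, had 335 and 199.6 CPM in S34F induced cells, 752 and 362 in Q157R induced cells, 843 and 347 in WT induced cells, 319.7 in S34F uninduced cells, 328 in Q157R uninduced cells, and 892 and 336 in WT uninduced cells. SHMT2, which splits serine in mitochondria, had 268 and 168 CPM in S34F induced cells, 363 and 243 in Q157R induced cells, 587 and 342 in WT induced cells, 294 in S34F uninduced cells, 270.3 in Q157R uninduced cells, and 560.0 and 295 in WT uninduced cells. MTHFD1L, which releases formate, had 45.8 and 34.7 CPM in S34F induced cells, 153 and 100.4 in Q157R induced cells, 173 and 98.7 in WT induced cells, 87.4 in S34F uninduced cells, 86.4 in Q157R uninduced cells, and 215 and 91.6 in WT uninduced cells. All 3 folate enzymes were higher in replicate 2 of each pair. The log2 differences were 2.14 ± 0.13 for PSAT1 (adjusted p = 8.99e-06), 2.00 ± 0.13 for PHGDH (adjusted p = 1.01e-05), 1.12 ± 0.12 for MTHFD2, 0.77 ± 0.13 for MTHFD1L and 0.74 ± 0.09 for SHMT2. PSPH, the last enzyme of serine synthesis, was -0.24, and ALDH1L2, nearly silent here, was 0.92; neither was called.

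Of the 6 other amino acid enzymes, 5 were called higher in replicate 2. GPT2, a mitochondrial alanine transaminase, had 25.4 and 6.66 CPM in S34F induced cells, 78.8 and 14.8 in Q157R induced cells, 86.0 and 19.0 in WT induced cells, 23.2 in S34F uninduced cells, 13.7 in Q157R uninduced cells, and 108 and 19.3 in WT uninduced cells. PYCR1, the last step of proline synthesis, had 111 and 58.6 CPM in S34F induced cells, 199.97 and 125 in Q157R induced cells, 255 and 125 in WT induced cells, 96.8 in S34F uninduced cells, 90.6 in Q157R uninduced cells, and 201 and 91.4 in WT uninduced cells. Replicate 2 was higher in each pair of both genes. GPT2 had the lowest adjusted p of all members, 4.08e-06, at 2.26 ± 0.12, and PYCR1 was 0.94 ± 0.10. ASNS rose by 1.54 ± 0.18, CTH, which makes cysteine from cystathionine, by 0.90 ± 0.18, and CBS, the step before it, by 2.7 ± 0.43 from few counts. ALDH18A1, the entry to proline synthesis, was -0.20 and was not called.

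Of the 7 amino acid transporters, 5 were called higher in replicate 2. SLC7A5 had 533 and 396 CPM in S34F induced cells, 913 and 739.6 in Q157R induced cells, 1025 and 629 in WT induced cells, 626 in S34F uninduced cells, 534 in Q157R uninduced cells, and 1217 and 574 in WT uninduced cells. SLC3A2, its heavy chain, had 159.6 and 140.1 CPM in S34F induced cells, 242 and 199 in Q157R induced cells, 307 and 178 in WT induced cells, 174 in S34F uninduced cells, 156.8 in Q157R uninduced cells, and 329.7 and 152 in WT uninduced cells. SLC7A1, the arginine and lysine carrier, had 238 and 177 CPM in S34F induced cells, 431 and 371 in Q157R induced cells, 440.5 and 299 in WT induced cells, 348 in S34F uninduced cells, 289.6 in Q157R uninduced cells, and 617 and 302 in WT uninduced cells. In these 3 highly expressed carriers, replicate 2 was higher in each pair, by less in S34F and Q157R induced cells than in WT cells. SLC7A11, the cystine carrier, had 106 and 65.0 CPM in S34F induced cells, 155 and 80.4 in Q157R induced cells, 193 and 69.6 in WT induced cells, 66.8 in S34F uninduced cells, 55.6 in Q157R uninduced cells, and 240.4 and 56.7 in WT uninduced cells. SLC1A4, the alanine and serine carrier, had 78.8 and 34.5 CPM in S34F induced cells, 159.6 and 65.5 in Q157R induced cells, 188 and 57.9 in WT induced cells, 52.0 in S34F uninduced cells, 38.5 in Q157R uninduced cells, and 209 and 44.2 in WT uninduced cells. The log2 differences were 1.60 ± 0.16 for SLC1A4, 1.30 ± 0.22 for SLC7A11, 0.63 ± 0.13 for SLC7A5, 0.59 ± 0.15 for SLC3A2 and 0.56 ± 0.12 for SLC7A1, and 0.55 and 0.40 for SLC38A2 and SLC1A5, carriers of neutral amino acids that were not called. SLC7A5, SLC7A1, SLC3A2 and SLC7A11 lost their calls when either WT induced library was left out. XPOT, which exports tRNA from the nucleus, had 277 and 210.2 CPM in S34F induced cells, 534 and 339.9 in Q157R induced cells, 565 and 353 in WT induced cells, 364 in S34F uninduced cells, 383 in Q157R uninduced cells, and 662 and 393 in WT uninduced cells, and rose by 0.62 ± 0.10. STC2, a secreted glycoprotein, was 1.80 and was not called.

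Pair by pair, the median member difference between replicate 2 and replicate 1 was 0.56 on the log2 scale in S34F induced cells, 1.08 in Q157R induced, 1.39 in WT induced and 1.79 in WT uninduced cells, against medians over all genes between -0.01 and 0.01. The members with a positive difference were 32, 34, 35 and 33 of 36 in these 4 pairs. The number of members called stayed at 28 or more without the S34F pair (32) and without the WT uninduced pair (29), and was 25 without the Q157R pair and 19 without the WT induced pair. It was lowest, at 18, without WT induced replicate 1.

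The S34F pair was then set against the other 3 pairs within the same model. The difference was smaller in the S34F pair for 34 of 36 members, with a median of -0.52, against -0.01 over all genes, but edgeR's quasi-likelihood test with Benjamini-Hochberg adjustment called 0 members and 0 genes. At an unadjusted p under 0.05 edgeR counted 13 members, against 5.32% of all genes, and DESeq2 called 0. Among members with an average log2 CPM (edgeR) of at least 3, the 2 largest shortfalls were in ATF5 (-1.49 ± 0.45) and ATF3 (-1.31 ± 0.30), and the 2 largest excesses in ALDH18A1 (0.54 ± 0.21) and PSAT1 (0.12 ± 0.31). The comparison was chosen after the data had been seen.

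**Figure D3:**
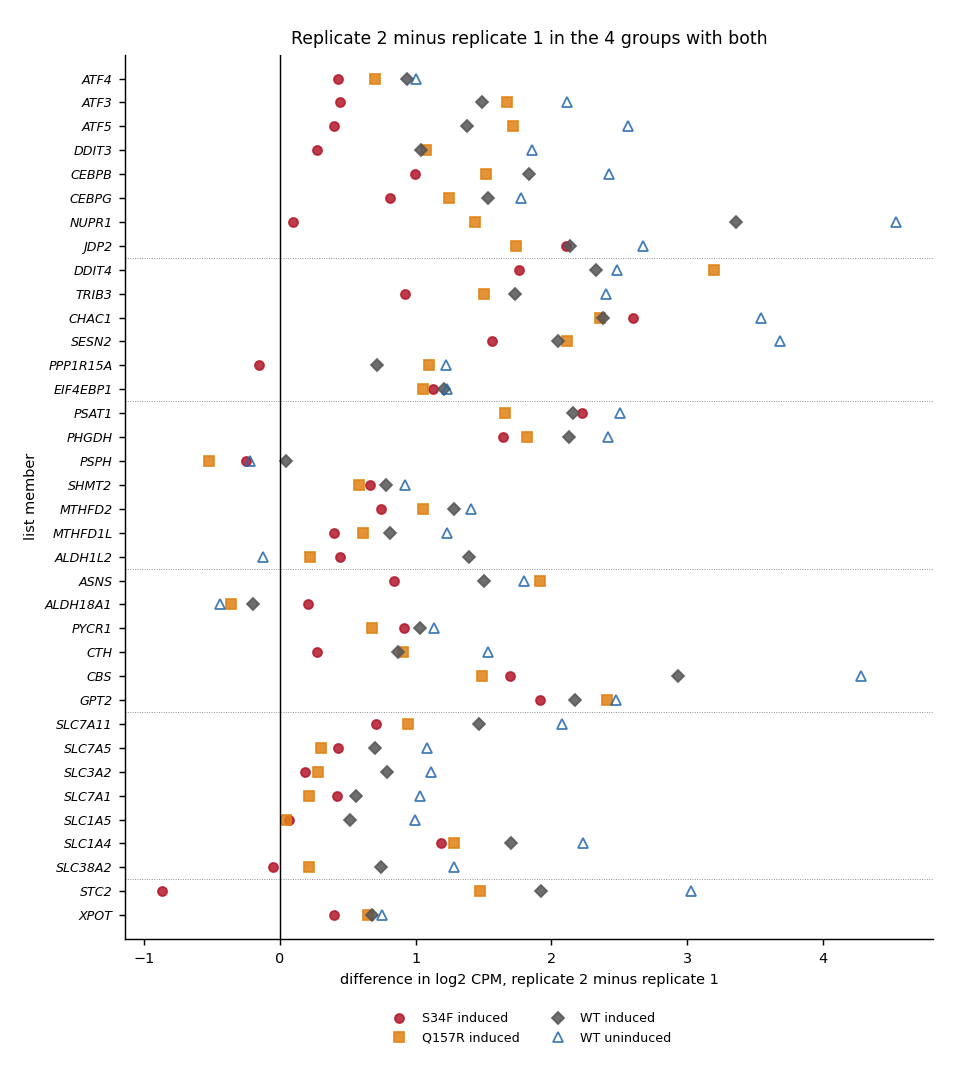
The difference in log2 CPM between replicate 2 and replicate 1 is plotted for the 36 tested members in the 4 groups that hold both numbers; dotted lines part the functional groups. Nearly all points lie right of 0, and the S34F induced points are the leftmost for most members, with CHAC1, PSAT1, JDP2 and EIF4EBP1 among the exceptions.

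The genotype comparison asked whether induced S34F changed the members relative to induced WT. The fit without the replicate number called 0 of 36 members (edgeR quasi-likelihood test, Benjamini-Hochberg adjustment), against 1.67% of all genes (0.681% higher and 0.991% lower). At an unadjusted p under 0.05 it counted 9 members, against 23.3% of all genes. DESeq2 called 2 of 37 members lower, EIF4EBP1 and MTHFD1L, beside 1022 of 38670 genes lower and 545 higher. The median log2 difference, S34F minus WT, was -1.16 over the members and 0.00 over all genes, or -0.16 over protein-coding genes. With the replicate number as a block, 20 members were lower and 0 higher, against 12.9% of all genes lower and 9.56% higher, and the median was -1.05. The direction rests on 2 libraries a group, and S34F lay below WT without overlap in 18 of 36 members, against 27.3% of all genes.

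ATF4 mRNA was not among the members called. It was -0.30 ± 0.42 without the block and -0.24 ± 0.15 with it (edgeR adjusted p = 0.289 with the block; 0.135 to 0.971 over 14 alternatives). Within replicate 1 the S34F and WT libraries differed by 0.01 in log2 CPM, and within replicate 2 by -0.50. Without WT induced replicate 2 the sign of the ATF4 difference turned, to 0.22. The 14 alternatives, here and below, are alternatives to the fit without the block. They take in the fit with the block and its versions with 1 library left out. The rest were made without the block.

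EIF4EBP1, PSAT1, GPT2 and MTHFD1L had the lowest adjusted p with the block. EIF4EBP1 fell by 1.84 ± 0.13 in log2 units (edgeR with block, adjusted p = 1.36e-04; 8.72e-12 to 0.484 over 14 alternatives), PSAT1 by 1.99 ± 0.18 (adjusted p = 2.38e-04; 1.69e-13 to 0.867 over 14 alternatives), GPT2 by 1.64 ± 0.17 (adjusted p = 3.76e-04; 5.94e-08 to 0.942 over 14 alternatives) and MTHFD1L by 1.71 ± 0.18 (adjusted p = 4.35e-04; 2.72e-10 to 0.409 over 14 alternatives). In EIF4EBP1 and MTHFD1L both S34F induced libraries lay below both WT induced libraries. In PSAT1 and GPT2 the groups overlapped, since S34F replicate 2 exceeded WT replicate 1, while each S34F library was below the WT library of its own number.

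Of the 8 transcription factors, CEBPB, CEBPG and JDP2 (3 of 8) were called lower in S34F with the block. Both S34F values of CEBPB were below both WT values, while those of JDP2 overlapped. The blocked log2 differences were -1.45 ± 0.29, -1.44 ± 0.22 and -1.16 ± 0.20 for CEBPB, JDP2 and CEBPG, against -1.65, -1.43 and -1.31 without the block. The largest estimates among the members not called were -2.78 for NUPR1 and -1.96 for ATF5; ATF3 was -1.0 and DDIT3 -0.70.

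With the block, 4 of 6 feedback and effector genes were called: DDIT4 (-2.11 ± 0.30), CHAC1 (-2.08 ± 0.27), TRIB3 (-2.05 ± 0.31) and EIF4EBP1. SESN2 was -1.75 and PPP1R15A 0.07, and neither was called. Among serine and one-carbon enzymes 5 of 7 were called, which besides PSAT1 and MTHFD1L were PHGDH (-1.25 ± 0.18), SHMT2 (-1.08 ± 0.13) and MTHFD2 (-1.06 ± 0.16). PSPH was -0.37 and ALDH1L2 1.09, not called. Without WT induced replicate 2 and without the block, PHGDH turned to 0.013.

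Among the other amino acid enzymes, 3 of 6 were called with the block: GPT2, PYCR1 (-1.15 ± 0.15) and CBS (-2.29 ± 0.65). CBS had 0.789 and 0.197 CPM in S34F induced cells, 4.20 and 1.45 in Q157R induced cells, 4.82 and 0.573 in WT induced cells, 1.03 in S34F uninduced cells, 0.510 in Q157R uninduced cells, and 5.44 and 0.214 in WT uninduced cells, all of them low. ASNS was -0.62, CTH -0.32 and ALDH18A1 -0.46, not called. Of the transporters, 4 of 7 were called: SLC1A4 (-0.99 ± 0.23), SLC1A5 (-0.90 ± 0.21), SLC7A1 (-0.82 ± 0.18) and SLC7A5 (-0.80 ± 0.18). SLC1A5 had 509 and 487 CPM in S34F induced cells, 933 and 903 in Q157R induced cells, 1118 and 783 in WT induced cells, 667 in S34F uninduced cells, 606 in Q157R uninduced cells, and 1165 and 585 in WT uninduced cells. Both S34F induced values lay below every other library. SLC3A2 was -0.63, SLC7A11 -0.46 and SLC38A2 -0.11, not called. XPOT was called at -0.88 ± 0.14, and STC2 was -1.04, not called.

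Within replicate 2, S34F was below WT in 35 of 36 members, with a median of -1.29, and within replicate 1 in 31 of 36, with a median of -0.75. Medians over all genes were -0.01 and 0.02. With the block, the number of members called lower was 16 without S34F replicate 2, 12 without WT replicate 1 and 13 without WT replicate 2. Without the block, leaving out any 1 of these 4 libraries gave 0 calls, and with no filter on low counts 25 members were called. The share of reads outside annotated features, given above, was higher in both S34F induced libraries than in the other 8; its part in these differences was not tested.

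**Figure D4:**
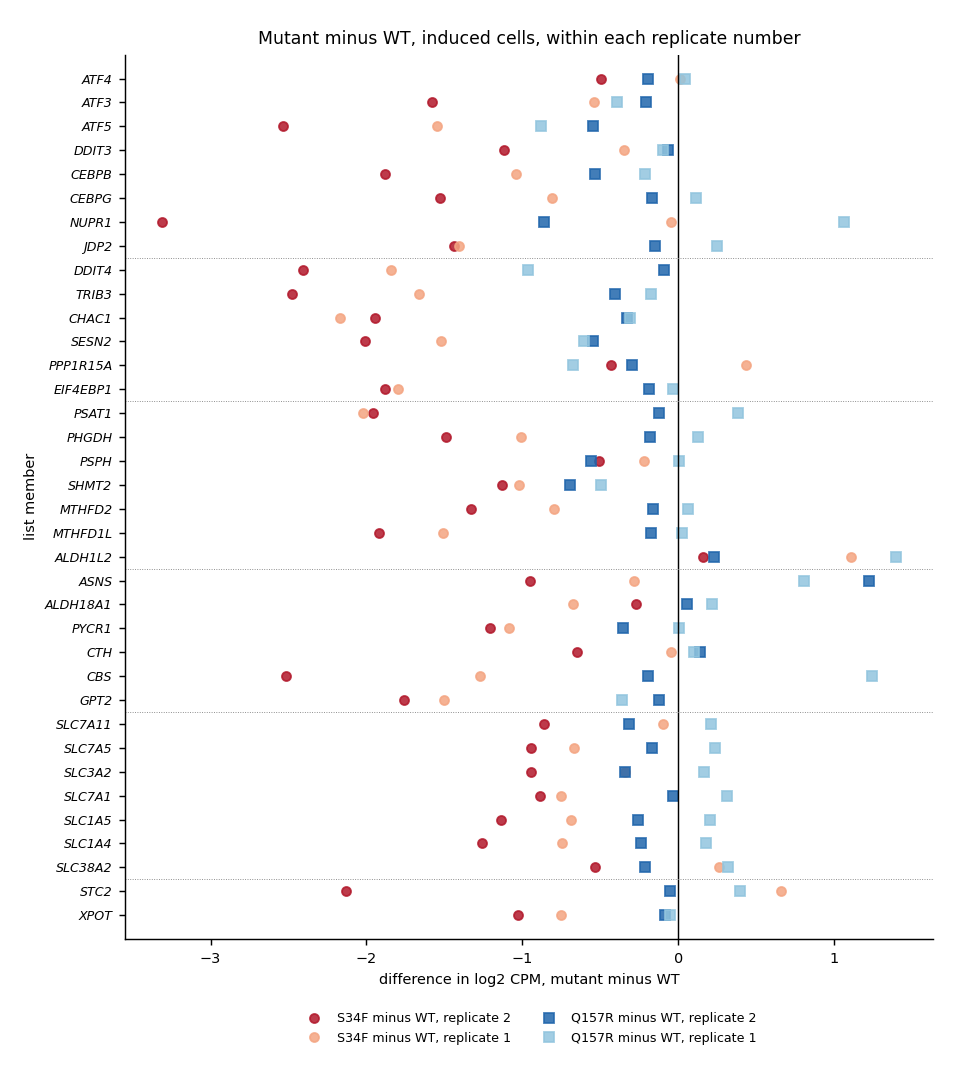
The difference in log2 CPM between mutant and WT induced cells is plotted for the 36 tested members, S34F as circles and Q157R as squares, with darker symbols for replicate 2. The S34F symbols lie left of 0 for most members in both replicate numbers (medians -1.29 and -0.75), and the Q157R symbols gather around 0 (medians -0.19 and 0.08).

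The induced mutants were also compared with each other, S34F minus Q157R. Without the block 0 of 36 members were called by edgeR (0.559% of all genes; 7 members and 21.5% of genes at an unadjusted p under 0.05), and DESeq2 called EIF4EBP1 and MTHFD1L lower. Of all 38670 genes, DESeq2 called 763 lower and 474 higher. With the block 22 members were lower and 0 higher, against 11.5% of all genes lower and 8.49% higher, at a median of -0.99. The largest differences without the block among members with an average log2 CPM (edgeR) of at least 3 were DDIT4 (-2.09 ± 1.26) and PSAT1 (-1.96 ± 1.10), and the other end was PPP1R15A (0.39 ± 0.46) and PSPH (-0.10 ± 0.24). Of the 22, ASNS, which was not called against WT, fell by 1.66 ± 0.26, and ALDH18A1 by 0.59 ± 0.16. The comparisons of S34F with WT and with Q157R share the S34F libraries. ASNS had 7.59 and 4.22 CPM in S34F induced cells, 34.5 and 9.07 in Q157R induced cells, 14.8 and 5.16 in WT induced cells, 4.32 in S34F uninduced cells, 3.02 in Q157R uninduced cells, and 11.4 and 3.22 in WT uninduced cells, with the highest value in Q157R replicate 2.

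No member was called between Q157R and WT in induced cells. The edgeR count was 0 of 36 without the block (0% of all genes; 0 members and 3.36% of genes at an unadjusted p under 0.05; DESeq2 0) and 0 with it (0.0188% of all genes; 2 members and 8.31% of genes at an unadjusted p under 0.05). The median member difference, Q157R minus WT, was -0.11 without the block and -0.07 with it. The largest falls in the estimates were ATF5 (-0.63 ± 0.83) and SHMT2 (-0.62 ± 0.40) and the largest rises ASNS (1.14 ± 0.79) and ALDH18A1 (0.14 ± 0.21), among members with that average level, and none was called. ATF5 had 27.3 and 20.7 CPM in S34F induced cells, 109 and 33.0 in Q157R induced cells, 158 and 60.9 in WT induced cells, 47.8 in S34F uninduced cells, 61.6 in Q157R uninduced cells, and 361 and 60.9 in WT uninduced cells.

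Induction was compared with the uninduced state within each line. In WT cells, edgeR called 0 members without the block and 0 with it, against 0% and 0.418% of all genes. At an unadjusted p under 0.05 it counted 0 members (6.4% of all genes) without the block and 2 (15.2%) with it, while the count by DESeq2 was 0. The median was -0.11 without the block and -0.03 with it. Among members with an average log2 CPM (edgeR) of at least 3, here called well expressed, the estimates ran from ATF5 (-0.95 ± 0.83) and PHGDH (-0.35 ± 1.00) at the low end to ASNS (0.44 ± 0.79) and CHAC1 (0.38 ± 1.31) at the high end. Within replicate 2 the induced library was lower than the uninduced one in 26 of 36 members (median -0.18), and within replicate 1 it was higher in 25 of 36 (median 0.23).

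In S34F cells, 0 members were called without the block (1.96% of all genes, 0.704% higher and 1.26% lower; 1 member and 25.2% of genes at an unadjusted p under 0.05), and DESeq2 called ALDH18A1 lower. Of all 38670 genes, DESeq2 called 1092 lower and 695 higher. With the block, 17 members were lower and 0 higher in induced S34F cells, against 11% of all genes lower and 8.23% higher, and the median was -0.84. GPT2 fell by 1.97 ± 0.21, EIF4EBP1 by 1.95 ± 0.16, PSAT1 by 1.85 ± 0.22, DDIT4 by 1.97 ± 0.36, MTHFD1L by 1.51 ± 0.22 and PHGDH by 1.26 ± 0.21. The others called were ALDH18A1, CBS, CEBPG, JDP2, MTHFD2, PYCR1, SHMT2, SLC7A1, SLC7A5, TRIB3 and XPOT, between -2.91 and -0.74. Without the block the estimates of well expressed members ran from EIF4EBP1 (-1.26 ± 0.69) and MTHFD1L (-1.12 ± 0.51) to PPP1R15A (0.87 ± 0.59) and CHAC1 (0.94 ± 1.71). The S34F uninduced group was 1 library of replicate 1, so the unblocked contrast sets both numbers against that single library. The blocked contrast assumes the same replicate shift in every group. The median member shift was 0.56 in the S34F pair, against 1.08, 1.39 and 1.79 in the Q157R induced, WT induced and WT uninduced pairs. Part of the blocked difference may therefore come from the smaller shift in S34F cells, which was not tested. Between the 2 replicate 1 libraries, the induced one was lower in 29 of 36 members, with a median of -0.67.

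In Q157R cells, 0 members were called without the block (0% of all genes; 1 member and 8.86% of genes at an unadjusted p under 0.05) and 0 with it (0.263%; 6 members and 14.2% of genes at an unadjusted p under 0.05), and DESeq2 called 0. The median was 0.89 without the block and 0.26 with it. Among well expressed members the ends were CHAC1 (3.72 ± 2.01) and DDIT4 (3.53 ± 1.80) above and PSPH (-0.56 ± 0.28) and ALDH18A1 (-0.05 ± 0.26) below; with the block CHAC1 was 1.92. Between the replicate 1 libraries, induced Q157R was higher in 29 of 36 members, with a median of 0.37.

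Before induction no member was called between the lines, and the medians depended on whether like-numbered libraries were compared. S34F uninduced minus WT uninduced had a median of -1.0 without the block, -0.18 with it and 0.10 between the replicate 1 libraries, and Q157R minus WT had -1.20, -0.33 and -0.09. In both comparisons edgeR called 0 members and 0% of all genes with and without the block, and DESeq2 called 0. At an unadjusted p under 0.05, S34F counted 0 members without the block (0.859% of genes) and 0 with it (2.1%), and Q157R 1 (1.1%) and 5 (1.59%). Among well expressed members without the block, the S34F estimates ran from SESN2 (-2.75 ± 1.68) and CHAC1 (-2.53 ± 1.85) to PSPH (-0.09 ± 0.29) and ALDH18A1 (0.46 ± 0.25), and the Q157R estimates from CHAC1 (-3.65 ± 2.00) and DDIT4 (-3.55 ± 1.80) to PSPH (0.10 ± 0.29) and ALDH18A1 (0.18 ± 0.25).

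The response to induction was then compared between lines. The difference S34F minus WT gave 0 members without the block (0% of all genes; 1 member and 8.19% of genes at an unadjusted p under 0.05; DESeq2 0) and, with it, 3 lower and 0 higher, against 0.554% of all genes lower and 0.15% higher. At an unadjusted p under 0.05 the block gave 21 members and 16.2% of genes. The 3, named after their values were seen, were EIF4EBP1 (-1.75 ± 0.20), GPT2 (-1.79 ± 0.27) and PSAT1 (-1.81 ± 0.29). The median was -0.09 without the block and -0.85 with it. Unblocked estimates of well expressed members ran from EIF4EBP1 (-1.06 ± 0.91) and MTHFD1L (-0.95 ± 0.67) to PPP1R15A (0.61 ± 0.74) and SESN2 (0.85 ± 1.91). The difference Q157R minus WT gave 0 members without the block (0% of all genes; 0 members and 1.23% of genes at an unadjusted p under 0.05; DESeq2 0) and 0 with it (0.00469%; 3 members and 2.55% of genes at an unadjusted p under 0.05), with medians of 1.13 and 0.26. Its unblocked ends among well expressed members were PSPH (-0.36 ± 0.37) and ALDH18A1 (-0.04 ± 0.33) below and DDIT4 (3.34 ± 2.06) and CHAC1 (3.33 ± 2.28) above.

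**Figure D5:**
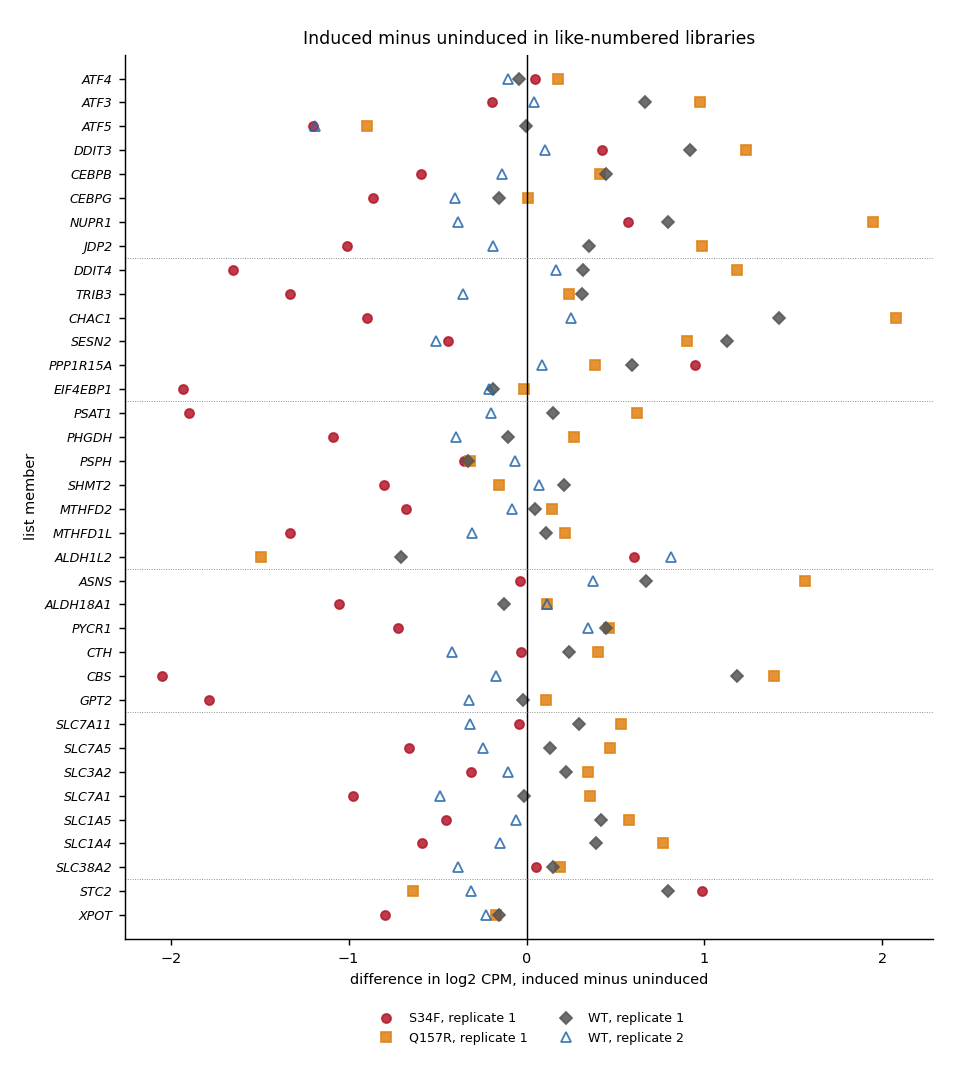
The difference in log2 CPM between induced and uninduced libraries of the same replicate number is plotted for the 36 tested members. S34F circles lie mostly left of 0 (median -0.67), Q157R squares and WT replicate 1 diamonds mostly right of it (medians 0.37 and 0.23), and WT replicate 2 triangles slightly left of it (median -0.18).

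Beyond the members, 24 other known ATF4 targets were listed, many of them tRNA synthetases, and 23 were tested. Replicate 2 was higher in 17 and lower in 0, with a median of 0.66, while 1938 of all 21300 genes were higher and 1697 lower. The lowest adjusted p (edgeR, Benjamini-Hochberg) belonged to BCAT1, a branched-chain transaminase (1.08 ± 0.12, adjusted p = 3.99e-04), and GARS1, glycyl-tRNA synthetase (1.06 ± 0.12, adjusted p = 4.10e-04). S34F was lower than WT in 1 of the 23 without the block, MTHFD1, a cytosolic folate enzyme, against 0.991% of all genes. With the block 18 were lower and 1, KLHL24, higher, at a median of -0.88, led by EPRS1 (-1.30 ± 0.14) and MARS1 (-1.11 ± 0.14), tRNA synthetases for glutamate with proline and for methionine. Of all 21300 genes, the block called 2743 lower and 2036 higher. The summed level of the 24 was 3913 and 2725 CPM in S34F induced cells, against 8131 and 4575 CPM in WT induced cells.

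The 17 genes upstream of ATF4, which are the eIF2 kinases, the subunits of eIF2 and of its exchange factor eIF2B, and their regulators, were counted in the same way. Replicate 2 was higher in 3 and lower in 5, at a median of -0.13, beside 1938 of all 21300 genes higher and 1697 lower. The lowest adjusted p belonged to EIF2B5, a subunit of eIF2B (-0.53 ± 0.12), and EIF2S3, a subunit of eIF2 (0.39 ± 0.09). S34F was lower than WT in 0 of 17 without the block and, with it, lower in 6 and higher in 0, at a median of -0.14, led by the eIF2 subunits EIF2S2 (-0.77 ± 0.12) and EIF2S1 (-0.88 ± 0.16). Of all 21300 genes, 0.991% were lower without the block, and 2743 were lower and 2036 higher with it. HRI (EIF2AK1) had 244 and 206 CPM in S34F induced cells, 251 and 203 in Q157R induced cells, 255 and 205 in WT induced cells, 193 in S34F uninduced cells, 191 in Q157R uninduced cells, and 248 and 200.04 in WT uninduced cells, and was higher in replicate 2 by 0.29 ± 0.09.

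Cell type markers moved with both comparisons as well, and their part in the members' differences was not tested. Of the 10 HEL markers, replicate 2 was higher in 2 (ITGA2B and GFI1B) and lower in 2 (HBG1 and HBG2). Of all 21300 genes, 1938 were higher and 1697 lower. S34F was lower than WT in GFI1B and ITGB3 without the block and, with it, lower in GFI1B, ITGB3, ITGA2B, GATA1 and HBG2 and higher in EPOR. Among all 21300 genes, 211 were lower and 145 higher without the block, and 2743 lower and 2036 higher with it. Summed HEL markers were 2419 and 2202 CPM in S34F induced cells, against 2828 and 2813 CPM in Q157R induced cells, and 3804 and 3172 CPM in WT induced cells. Summed monocyte and granulocyte markers were 53.9 and 51.4 CPM in S34F induced, 49.5 and 36.7 in Q157R induced, and 46.8 and 36.2 in WT induced cells, against 23.1 in S34F uninduced, 22.9 in Q157R uninduced, and 41.4 and 25.2 in WT uninduced cells. Among them CSF1R, at 0.907 to 13 CPM, was higher in replicate 2 by 1.92 ± 0.19, and was -1.47 ± 0.27 between S34F and WT with the block, where it was called lower. The other 2 tested markers of that list, LYZ and CD14, were 0.49 ± 0.16 and 1.05 ± 0.93 there and were not called, and the list's median was 0.49. Stromal and epithelial markers summed to 6.07 to 15.6 CPM, with KRT19 at 0 and COL1A1 higher in S34F by 2.06 ± 0.49 with the block at 0.224 to 1.18 CPM, PDGFRB, the other one tested, at -0.82 ± 0.28 and not called, and lymphoid markers summed to 0.656 to 2.32 CPM.

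Some members overlap genes on the opposite strand, among them ATF5 (IL4I1 and NUP62), DDIT3 (MARS and MBD6), SHMT2 (NDUFA4L2), MTHFD2 (SLC4A5), ALDH1L2 (C12orf45) and VLDLR (VLDLR-AS1). The strand setting of the counting is not given in the sources used here, so reads of such pairs may not be told apart.

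The members were also looked up in the crosslinking libraries, in which RNA bound by U2AF1 or U2AF2 under ultraviolet light is sequenced. These were 7 eCLIP libraries, some of them technical repeats and therefore summed, from whole U2AF1 or U2AF2 precipitates of induced WT cells, and 17 freCLIP libraries, divided by size into complexes of 37 to 65 kD (light) and of 65 to 110 kD (heavy). Only 38415 to 730996 reads per freCLIP library were counted in genes, and 7 members passed its filter. ATF5 and DDIT3 held the most reads, with 894 and 464 in the summed U2AF1 eCLIP libraries and 677 and 435 in those of U2AF2. In freCLIP, ATF5 had 131 reads in light S34F, 46 in light Q157R and 115 in light WT libraries, and 387, 160 and 673 reads in the heavy libraries of S34F, Q157R and WT.

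None of the 7 members, which were ATF5, DDIT3, SHMT2, MTHFD2, SLC1A5, SLC1A4 and VLDLR, was called by edgeR's quasi-likelihood test in any of the 4 freCLIP comparisons with WT. All genes were called at 0.337% for S34F in the light fraction, 0.132% for S34F in the heavy fraction, 7.6% for Q157R in the light fraction and 0% for Q157R in the heavy fraction. The count at an unadjusted p under 0.05 was 0 of 7 in each, against 14.2% and 4.07% of all genes for S34F in the light and heavy fractions and 30.7% and 2.18% for Q157R. With the block it was 1, VLDLR, in the light S34F comparison, against 9.92% of all genes, and DESeq2 called 0 members. The precision was low: the SE of the log2 difference between S34F and WT in the light fraction was 0.49 for ATF5 and 1.05 for DDIT3. In the light Q157R comparison the median over all genes was -1.19, and that of the 7 members -2.47. With the block these were -1.15 and -1.91. The -2.47 was the estimate of DDIT3 (SE 1.55), which had 2 and 0 reads in light Q157R replicates 2 and 3. MTHFD2 and SLC1A5 had 0 reads in both, so no loss particular to the members can be read from these medians.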

How the data were processed

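RNA-seq, eCLIP and freCLIP libraries of HEL cells were represented by the authors' deposited tables of raw read counts per gene, with no normalisation. The submitters' processing notes name HISAT2, STAR (2.5.3a and 2.7.0f), cutadapt, SAMtools, HTSeq, DESeq2, edgeR and the build GRCh38.p10, without giving their roles; the strand setting of the counting is not given in the sources used here. Of 43 samples, 34 had a column in these tables, 0 columns had no sample, and 9 TimeLapse-seq samples were not analysed here. Count entries that name no gene, which took in reads outside annotated features, stayed out of library sizes and tests.

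Genes were filtered with filterByExpr (minimum count 10), scaled by TMM and tested with edgeR 4.0.16 quasi-likelihood fits (R 4.3.3, limma 3.58.1) over all 6 RNA groups, with Benjamini-Hochberg adjustment over all genes and a threshold of 0.05. The standard error of a log2 fold change was its size divided by the square root of F. CPM values use library sizes scaled by TMM, and single-library log2 CPM a prior count of 2. The genotype and induction fits were made without the replicate number and with it as a block, which assumes the same replicate shift in every group. Like-numbered libraries deviated together from their group means in 6 of 6 pairs of groups (r 0.211 to 0.652), so the numbers, taken from the labels, were read as pairing the libraries. Where a group holds 1 library, it is assumed to vary like the other groups.

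Alternatives were DESeq2 1.42.0, other size factors, no filter, protein-coding genes only, only the compared groups, and each library left out. For fits made without the replicate number, the block was a further alternative. Between S34F and WT in induced cells, blocked fits with 1 library left out were added. The fits were tested on simulated data. In these a gene's replicate shift was the same in every group, so shifts that differ between groups were not covered. Values in every library are printed for ATF4 and for up to 20 called members per main comparison, highest level first, and elsewhere for called members or the 2 largest rises and falls. The members and lists were chosen with earlier results of these data known.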

Additional observations from a re-analysis of the deposited data

Results flagged for a closer look

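The response to induction differed between S34F and WT cells in 3 members when the replicate number was in the model, by edgeR's test of the difference itself. The difference, S34F minus WT, was -1.81 ± 0.29 on the log2 scale for PSAT1, -1.79 ± 0.27 for GPT2 and -1.75 ± 0.20 for EIF4EBP1. Without the replicate number it was -0.25 ± 1.67, -0.25 ± 1.75 and -1.06 ± 0.91, and none was called. The S34F uninduced group behind this contrast is 1 library of replicate 1. The fit with the replicate number assumes the same replicate shift in every group, while the shift was smaller in the S34F pair for most members. For GPT2 it was 1.92 there, against 2.17 to 2.47 in the other pairs. For PSAT1 (2.22) and EIF4EBP1 (1.13) it lay within the other pairs (1.65 to 2.504 and 1.05 to 1.23). Between replicate 1 libraries alone, induced minus uninduced was -1.897 in S34F and 0.147 in WT cells for PSAT1. It was -1.787 and -0.022 for GPT2, and -1.933 and -0.189 for EIF4EBP1. The part of the unequal shift in these calls was not tested.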

How the results depend on the processing

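Members called in the comparison of replicate 2 with replicate 1 numbered 18 to 32 when 1 library was left out, with 18 without WT induced replicate 1 and 19 without WT induced replicate 2. Between S34F and WT in induced cells, where the fit without a block called 0, the replicate block gave 20, DESeq2 2 and no filter on low counts 25; with the block, leaving out 1 library gave 12 to 20 (20 without S34F replicate 1, 16 without S34F replicate 2, 12 without WT replicate 1 and 13 without WT replicate 2), alternatives chosen after seeing the data. Between S34F and Q157R the replicate block gave 22, DESeq2 2 and no filter 24. Of all 38670 genes, no filter called 899 higher and 1511 lower for S34F against WT, and 810 and 1325 against Q157R. DESeq2 called 545 higher and 1022 lower for S34F against WT, and 474 and 763 against Q157R. For induction, where 0 were called, S34F cells gave 17 with the replicate block, 1 with DESeq2, 6 with no filter and 5 with only the compared groups (ALDH18A1, MTHFD1L, SLC7A1 and ATF5 lower, PPP1R15A higher). Of all 38670 genes, DESeq2 called 695 higher and 1092 lower there, and no filter 1185 and 1807. With only the compared groups, 1896 of 20306 genes were higher and 2461 lower, beside those 5 of 33 tested members. With no filter, induction gave 1 in WT cells (ATF5) and 17 in Q157R cells, the uninduced comparisons with WT gave 13 for S34F and 18 for Q157R, and the difference in induction gave 10 for Q157R minus WT. Of all 38670 genes, induction then called 115 higher and 15 lower in WT cells, and 458 and 111 in Q157R cells. The uninduced comparisons called 4 higher and 59 lower for S34F, and 4 and 115 for Q157R. That difference in induction called 41 higher and 3 lower. The difference in induction for S34F minus WT gave 3 with the replicate block. Among the members, the block changed no other call in the RNA-seq comparisons described. Without WT induced replicate 2 and without the block, the S34F difference turned to 0.22 for ATF4 (range -0.70 to 0.22) and to 0.013 for PHGDH (range -2.43 to 0.013). The causes were not tested.

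Each genotype and treatment rests on 1 or 2 libraries. Low counts limit NUPR1, STC2, CBS and ALDH1L2, and the freCLIP gene counts limit all members there.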

Other observations

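The crosslinking and expression counts of 2 members stood apart. VLDLR, the very low density lipoprotein receptor, had 0 to 3 RNA-seq counts per library, against 244 reads in the summed U2AF1 and 199 in the summed U2AF2 eCLIP libraries. ALDH1L2 had 0 to 12 RNA-seq counts per library, against 64 and 63 eCLIP reads. ATF4, the second most expressed member per kilobase, had 28 and 13. VLDLR overlaps VLDLR-AS1 and ALDH1L2 overlaps C12orf45 on the opposite strand, and whether the reads come from those genes was not tested.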
